A study of Nematostella vectensis and Apis mellifera and Strongylocentrotus purpuratus with 22 samples.

Results

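The unplaced scaffolds of the honey bee (Apis mellifera) genome are the assembled pieces that were never anchored to a chromosome. Their DNA methylation was described from CpGs on every sequence whose name starts with GroupUn, taking CpGs covered by at least 5 reads and 1000-bp windows that held at least 5 such CpGs (called described windows). The 6 samples were listed on 4137 unplaced scaffolds and 16 numbered chromosomes. In at least 1 sample, 23903 of the 218795 described windows lay on unplaced scaffolds, where the described windows spread over 3411 scaffolds. Scaffolds were chosen by name and no methylation value was used, but the minimum of 5 reads filters on depth: over the samples it was met by 21.3% to 84.9% of the listed unplaced CpGs and by 50.7% to 98.4% of the listed chromosome CpGs.

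Whole-genome bisulfite sequencing, which reads methylated cytosines as C and unmethylated cytosines as T, had been run on sperm, oocytes, worker blastoderm, worker gastrula, drone blastoderm and drone gastrula. All came from wild-type bees. The oocytes were unfertilized eggs laid on drone combs, embryos were taken from worker or drone combs at the blastoderm and gastrulation stages, and sperm was squeezed from drones and spun to remove somatic cells. Each stage was deposited as 1 set of counts that pooled 2 replicates, so no stage has a replicate check. Binomial intervals of levels cover the counting of reads only. They do not cover incomplete bisulfite conversion, for which the paper lists rates that differ between the bee libraries. Wilson intervals of window shares treat the windows of 1 genome as independent, which they are not. The samples held from 47356912 reads over CpGs in oocytes to 601450469 in worker gastrula.

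Honey bees carry the enzymes that copy and establish CpG methylation, and their genome is known for sparse methylation that lies mainly within gene bodies. Workers develop from fertilized eggs and are diploid, whereas drones develop from unfertilized eggs and are haploid. Methylated cytosines mutate readily to thymine, and regions methylated in the germ line therefore tend to be poor in CpGs. In this assembly most unplaced scaffolds are short and their gene content was not annotated in the sources used here, so windows are named by scaffold and position in assembly GCA_000002195.1.

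Unplaced scaffolds were CpG-poor. They held 564134 listed CpGs, 5.63% of the total. A window with at least 5 listed CpGs had a median of 15 CpGs on unplaced scaffolds and 49 on chromosomes. Windows with 5 to 19 CpGs made up 63.1% of these unplaced windows and 17.4% of the chromosome windows, whereas windows with at least 40 CpGs made up 15.2% and 61.2%. The limit of 5 CpGs cut through a well-filled range, since 1295 unplaced windows had exactly 4 listed CpGs and 1385 had exactly 5. The distance from the first to the last listed CpG (the span) had a median of 1085 bp and a maximum of 620416 bp. Only 385 scaffolds spanned 10000 bp or more. Scaffold ends cut windows short, and without the first and last window of each sequence the medians were 14 and 49 CpGs. Not every short scaffold was CpG-poor: GroupUn3727 had 59.6 CpGs per kb of its span, against 44.7 on chromosome 1.

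Most unplaced CpGs were covered by fewer reads than those of the chromosomes. Over all CpGs listed in each sample, the median number of reads was 17 on unplaced scaffolds and 50 on chromosomes in sperm. It was 3 and 5 in oocytes. In worker embryos it was 11 and 22 at blastoderm and 36 and 60 at gastrula. The gap was widest in sperm. Drone embryos had 10 and 25 at blastoderm and 11 and 18 at gastrula. In windows with at least 5 CpGs covered by 1 read or more, the mean log2 ratio of unplaced to chromosome medians was -0.997, below 0 in 6 of 6 samples. An exact 2-sided sign-flip permutation test gave p = 0.03125 (Benjamini-Hochberg adjusted p = 0.0521 over 5 tests against chromosomes). It was an alternative to the planned depth test, which used CpGs with at least 5 reads and is given below. The smallest p that 6 samples allow is 0.03125, and since all 6 samples share 1 genome, these tests measure only how steady a difference was between libraries.

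Among described CpGs, where the minimum of 5 reads cuts off the low end, the medians were 24 and 51 in sperm and 7 in both in oocytes. Worker embryos had 15 and 23 at blastoderm and 44 and 61 at gastrula, and drone embryos had 15 and 25, then 14 and 18. The mean log2 ratio was -0.55 ± 0.37 (SD, n = 6 samples), below 0 in 5 of 6, and -0.62 without the requirement on windows. For the first of these the planned exact sign-flip permutation test gave p = 0.0625 (adjusted p = 0.0781). These values are given as a description because depth chose these CpGs. With mean in place of median reads the ratio was 0.14, above 0 in 4 of 6 samples. CpGs above 5 times the median depth of their sample made up 0.715% to 1.22% of unplaced CpGs and 0.0169% to 0.0216% of chromosome CpGs.

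**Figure D1:**
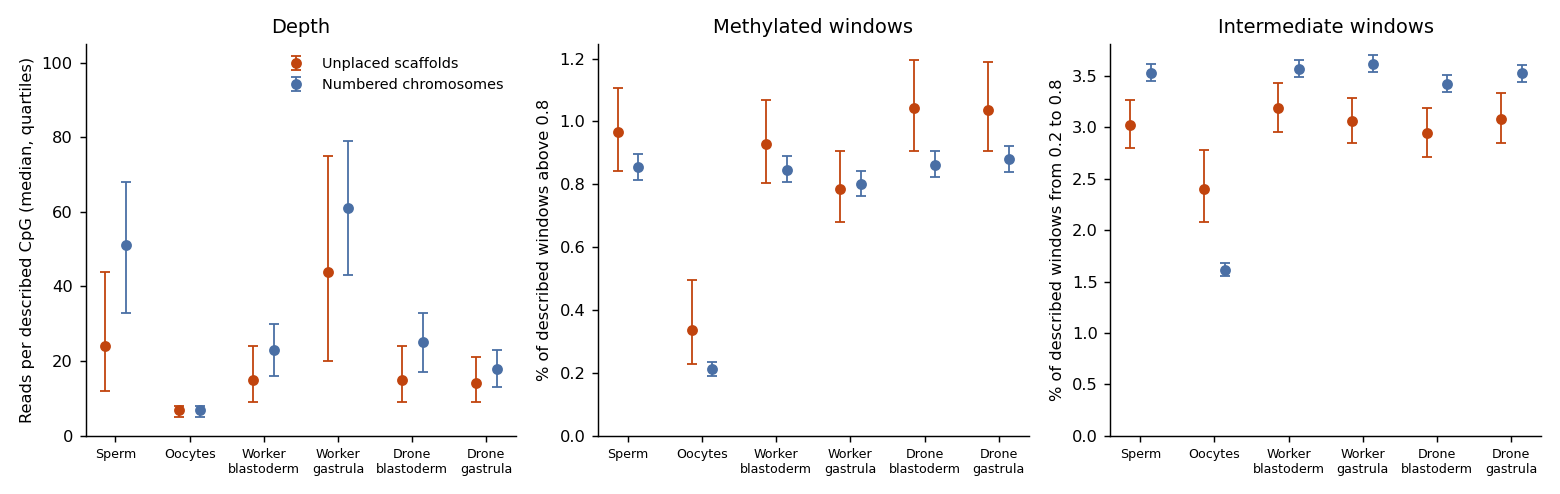
Median reads per described CpG with quartiles (left), and the share of described windows with a level above 0.8 (middle) or from 0.2 to 0.8 (right) with 95% Wilson intervals, for unplaced scaffolds and numbered chromosomes in each of the 6 samples. Unplaced medians lie below the chromosome medians in every sample except oocytes, where both are 7 reads.

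Depth varied between scaffolds far more than between chromosomes. Relative depth is the mean reads per CpG of a scaffold divided by that of the chromosomes in the same sample. Among the 1788 scaffolds with at least 50 CpGs, its median over samples had a median of 0.366, with quartiles of 0.186 and 0.598. It was under 0.1 on 199 scaffolds, under 0.5 on 1169 and above 2 on 34. On the largest scaffold by span, GroupUn1, relative depth was 0.707 in sperm, 0.766 in oocytes, 0.812 and 1.06 in worker embryos (blastoderm, then gastrula) and 0.709 and 0.945 in drone embryos. GroupUn2, GroupUn3, GroupUn5 and GroupUn6, which with GroupUn1 held the most described windows, also had their highest relative depth in worker gastrula.

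The deepest scaffold was GroupUn3727, with 57 CpGs over 957 bp. Its relative depth was 129 in sperm, 346 in oocytes, 207 and 112 in worker embryos (blastoderm, then gastrula) and 218 and 181 in drone embryos. GroupUn302 followed with 28.4 to 90.4, and GroupUn433 with 23.4 to 35.4. All 3 had their lowest value in worker gastrula and were nearly unmethylated, with mean levels of 0.0066 to 0.0086, 0.0067 to 0.0098 and 0.0061 to 0.0080. At the other end, GroupUn4222, GroupUn4548 and GroupUn2557 had almost no reads, with relative depths of at most 0.0735 in any sample. GroupUn3244 varied most, from 0.00136 in drone gastrula to 0.190 in sperm. GroupUn1576 ranged from 0.00488 in drone gastrula to 0.361 in worker gastrula, and GroupUn3474 from 0.00755 in drone gastrula to 0.466 in sperm. Drone gastrula was lowest on all 3.

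Nearly all unplaced DNA was unmethylated, with a small methylated fraction, the mosaic pattern known from invertebrates. The methylation level of a CpG is the share of its reads that were methylated. Between 95.9% and 97.3% of described unplaced windows had a mean level below 0.2. The mean level over described CpGs was 0.0186 on unplaced scaffolds and 0.0127 on chromosomes in sperm. It was 0.0155 and 0.0100 in oocytes. In worker embryos it was 0.0201 and 0.0131 at blastoderm and 0.0190 and 0.0137 at gastrula. Unplaced scaffolds were the higher in each of these samples. Drone embryos had 0.0199 and 0.0132 at blastoderm and 0.0210 and 0.0139 at gastrula. The mean difference was 0.00628 ± 0.000814 (SD, n = 6; exact sign-flip permutation test, p = 0.03125, adjusted p = 0.0781 over the 5 tests), higher in 6 of 6 samples, which did not pass a threshold of 0.05 after adjustment. CpGs above a level of 0.9 made up 0.254% to 0.919% of described unplaced CpGs and 0.0956% to 0.407% on chromosomes, a mean difference of 0.311 percentage points with the same p-values in the exact permutation test.

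Shares of methylated windows were close on unplaced scaffolds and chromosomes. Methylated windows, those with a mean level above 0.8, numbered 201 of 20827 in sperm (0.965%, 95% Wilson interval 0.841 to 1.11). There were 25 of 7451 in oocytes (0.336%, 0.227 to 0.495). Worker blastoderm had 191 and worker gastrula 186, which is 0.927% and 0.786%. Drone blastoderm had 199 and drone gastrula 207, which is 1.04% in both. Chromosome shares were 0.854% in sperm, 0.212% in oocytes and at most 0.880% in embryos, and worker gastrula alone had the higher share on chromosomes, by a difference of -0.0147 percentage points. The unplaced share lay within the range of the 16 single chromosomes in 6 of 6 samples, for example 0.357% to 1.28% in sperm. The mean difference of 0.106 percentage points was above 0 in 5 of 6 samples (exact permutation test, p = 0.0625, adjusted p = 0.0781). Intermediate windows, from 0.2 to 0.8, made up 2.40% to 3.19% of unplaced windows, and their mean difference from chromosomes was -0.263 percentage points (exact permutation test, p = 0.21875). Oocytes alone had more intermediate windows on unplaced scaffolds than on chromosomes, and without them the mean difference was -0.474. The sign was not stable, with 0.210 without the first and last window of each sequence, 0.498 on scaffolds spanning at least 10000 bp and 0.590 with all samples thinned to the reads of oocytes.

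At equal CpG counts per window the order turned around, and unplaced windows were the less methylated. Windows with 5 to 9 CpGs had a mean level of 0.0685 to 0.125 over the 6 samples on unplaced scaffolds and 0.263 to 0.356 on chromosomes. With 10 to 14 CpGs the levels were 0.0324 to 0.0469 and 0.118 to 0.164. With 15 to 19 CpGs they were 0.0216 to 0.0265 and 0.0576 to 0.0704. In each of these classes, and in windows with 20 to 29 and 30 to 39 CpGs, the unplaced level was the lower in 6 of 6 samples. From 40 CpGs upward both were low and overlapped, at 0.00673 to 0.00852 on unplaced scaffolds and 0.00700 to 0.00835 on chromosomes. With chromosome windows weighted to the CpG counts of the unplaced windows, the mean level difference was -0.0323 (below 0 in 6 of 6 samples, exact permutation test, p = 0.03125, adjusted p = 0.0781). The weighted difference was -2.36 percentage points for methylated windows and -9.53 for intermediate windows. Kept to scaffolds spanning at least 10000 bp and without the first and last window of each sequence, a comparison chosen after seeing the data, the weighted differences were -0.0400, -2.68 and -10.8, with the same order as before.

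**Figure D2:**
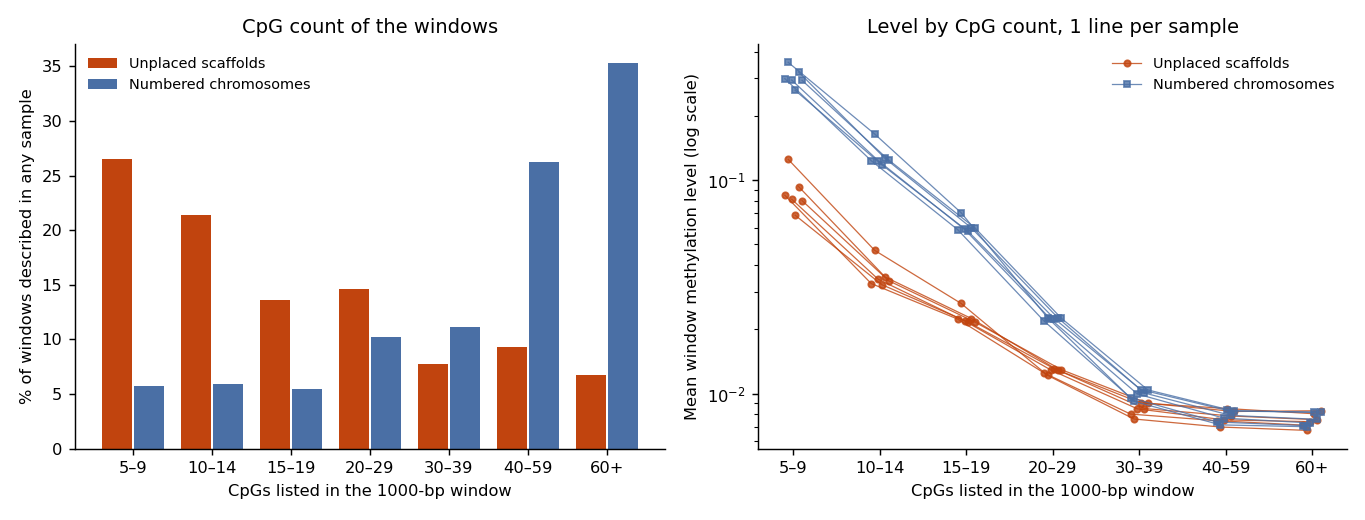
Share of described windows by the number of CpGs listed in the 1000-bp window (left), and mean window methylation level by CpG count on a log scale, with 1 line per sample (right). Unplaced windows with 5 to 9 CpGs lie at 0.0685 to 0.125 and chromosome windows at 0.263 to 0.356, and the lines meet from 40 CpGs upward.

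Methylated unplaced windows were CpG-poor like those of the chromosomes. Their median number of listed CpGs was 6 to 10 over the 6 samples, against 15 to 25 for all described unplaced windows. On chromosomes the methylated windows had medians of 7 to 10. In sperm, 167 of the 201 had 5 to 9 CpGs, 24 had 10 to 14 and 10 had 15 to 19. No unplaced window with 20 or more CpGs was methylated in any of the 6 samples.

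Methylation was gathered on few scaffolds. The 290 windows methylated in at least 1 sample lay on 102 scaffolds, and the 20 scaffolds with most of them held 54.8% of these windows and 10.2% of the described windows. No described window reached 0.2 in any sample on 3229 of the 3411 scaffolds. Of the 371 scaffolds with at least 10 described windows, 243 had none at 0.2 or above and 83 had a methylated one. The pattern followed length: methylated windows made up 0% to 0.314% on scaffolds spanning less than 2000 bp, 0% to 0.111% from 2000 bp, 0.417% to 1.27% from 10000 bp and 0.446% to 1.37% from 100000 bp. Mean depth also differed between these classes, without a steady rise. Relative to the chromosome mean it was 0.479 to 0.625 below 2000 bp and 0.471 to 0.616 from 2000 bp. It was 0.807 to 1.18 from 10000 bp and 0.629 to 1.11 from 100000 bp. The number of CpGs per window differed too, with a median of 19 below 2000 bp and 29.5 from 2000 bp. On the shortest scaffolds the ends cut windows short, so this count understates their CpG density. The median was 14 from 10000 bp and 12 from 100000 bp. The part of depth or density in the pattern was not tested.

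**Figure D3:**
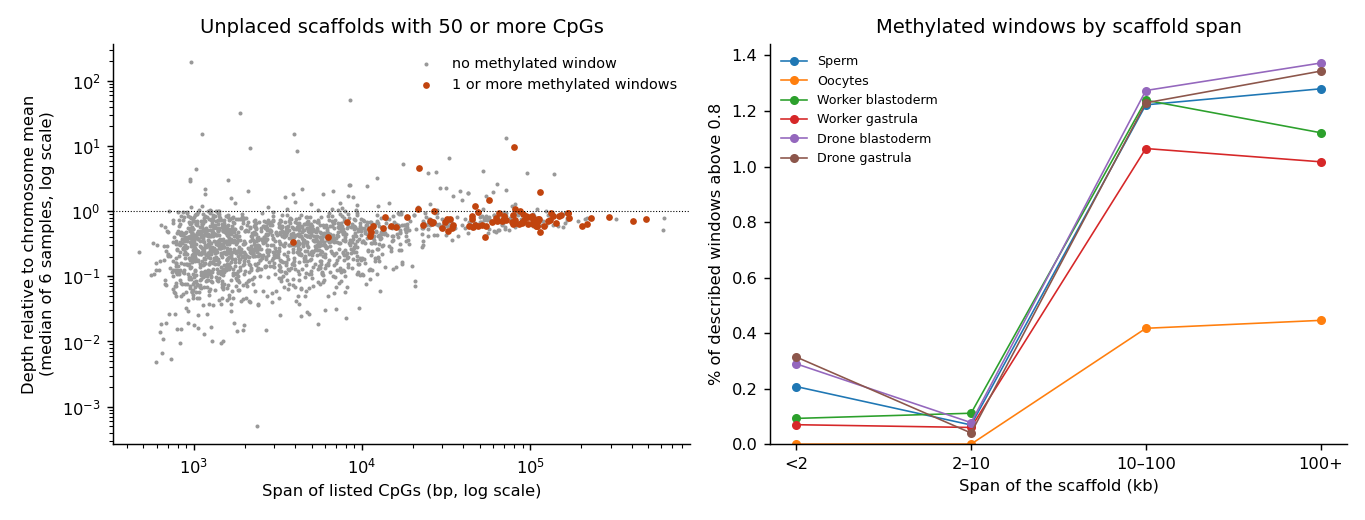
Relative depth against span for unplaced scaffolds with at least 50 CpGs and a median relative depth above 0, marked by whether any window was methylated (left, both axes on log scales, dotted line at the chromosome mean), and the share of methylated windows by span class in each sample (right). Methylated windows make up at most 0.314% below 10 kb and 0.417% to 1.37% above it.

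The 2 scaffolds with the most described windows had none that reached 0.2. GroupUn2 had 494 described windows, and its mean level was between 0.0075 and 0.0088 in the 6 samples. GroupUn1 had 487 and levels of 0.0074 to 0.0090. A count of 0 allows shares of up to 0.607% and 0.616% if windows are taken as independent. GroupUn3 had 5 methylated windows of 428, GroupUn5 had 7 of 344 and GroupUn6 had 13 of 257. The mean level of GroupUn6 was 0.0892 in sperm, 0.0765 in oocytes, 0.0880 and 0.0844 in worker embryos (blastoderm, then gastrula) and 0.0841 and 0.0842 in drone embryos.

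GroupUn29 had the most methylated windows, 20 of 132 in any sample. The last window that reached 0.2 in any sample ended at position 124000, and 49 of the 94 described windows up to there reached 0.2. In the 38 described windows after it, up to 169000, levels were at most 0.0979. That none of these reached 0.2 follows from where the line was drawn. The median number of CpGs was 9 per window before that position and 15.5 after it. By sample, 14 windows were methylated in sperm, 0 of 38 described in oocytes, 12 and 9 in worker embryos (blastoderm, then gastrula) and 14 and 15 in drone embryos. The mean level of the scaffold was 0.188, 0.121, 0.181, 0.180, 0.186 and 0.180 in that order. Oocytes had 514 CpGs with at least 5 reads on GroupUn29 and the other samples 1469 to 1680, so these means do not cover the same CpGs. Mean levels of the other scaffolds carry the same limit. GroupUn126 was the most methylated of the 5 scaffolds with most methylated windows, with 12 such windows of 50 and mean levels of 0.329 in oocytes to 0.384 in drone blastoderm. GroupUn22 had 12 of 129 and GroupUn14 had 11 of 116.

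**Figure D4:**
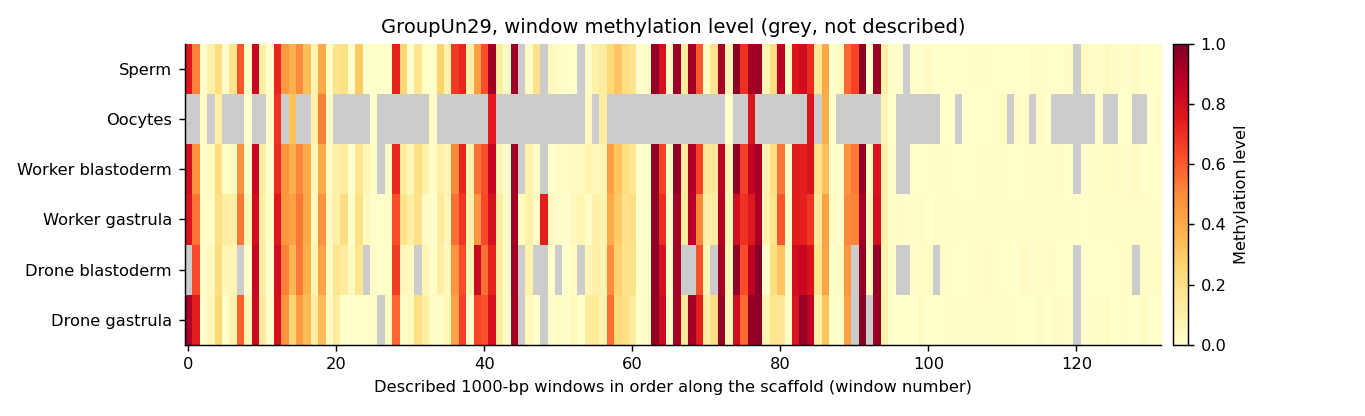
Methylation level of the 132 described windows of GroupUn29 in order along the scaffold (x axis, window number) in the 6 samples, with grey for windows not described in a sample. High and low windows alternate in the first 94 windows and recur in each sample, and the last 38 windows are at most 0.0979.

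Methylated windows lay next to each other more often than windows at large. After a methylated window, the next described window was also methylated in 13.3% of 120 pairs in sperm, 12.3% of 130 and 14.96% of 127 in worker embryos (blastoderm, then gastrula) and 15.7% of 115 and 17.1% of 129 in drone embryos. Over all neighbouring unplaced pairs in these samples the share was 0.662% to 0.872%. In oocytes there were 0 of 8. On chromosomes the share after a methylated window was 8.59% to 9.81% in the same 5 samples. The difference between unplaced scaffolds and chromosomes was not tested, because windows of 1 genome are not replicates.

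The unplaced windows with the highest mean level over the 6 samples are given by sample. Ranking by that mean favours windows that were high in every sample, so they cannot show how steady high levels were. Among the 4302 unplaced windows with at least 10 CpGs of 5 reads in every sample, GroupUn97:17001-18000 had the highest mean, with 0.942 in sperm, 0.736 in oocytes, 0.865 and 0.823 in worker embryos (blastoderm, then gastrula) and 0.911 and 0.886 in drone embryos. Oocytes were lowest there. Each sample was averaged over its own CpGs, 15 in sperm, 11 in oocytes and 17 in worker gastrula, so these levels do not cover the same CpGs. Worker gastrula included unmethylated CpGs at 17037 and 17145 that had too few reads in sperm. High levels lay in a single stretch of the window. In sperm the 15 CpGs from position 17542 to 17999 had levels of 0.862 to 1, each covered by 18 to 67 reads, whereas the CpG at 17037 was unmethylated in the 15 reads of worker gastrula.

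GroupUn188:21001-22000 was close to even, with 0.874 in sperm, 0.865 in oocytes, 0.859 and 0.848 in worker embryos (blastoderm, then gastrula) and 0.842 and 0.864 in drone embryos. GroupUn74:139001-140000 ranged from 0.757 in oocytes to 0.805 in drone gastrula, and GroupUn76:66001-67000 from 0.709 in oocytes to 0.801 in worker blastoderm. GroupUn5:199001-200000 ranged from 0.695 in oocytes to 0.814 in worker blastoderm. The other 3 windows of the 8 highest, GroupUn74:142001-143000, GroupUn264:3001-4000 and GroupUn131:45001-46000, were also lowest in oocytes, at 0.546, 0.567 and 0.540, and highest in sperm, at 0.830, 0.868 and 0.708.

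Levels of unplaced windows recurred from stage to stage. Pearson's r of window levels between any 2 samples was 0.946 to 0.988 on unplaced scaffolds and 0.936 to 0.993 on chromosomes, as a description across windows. Over the 17527 unplaced windows described in the 5 samples other than oocytes, 243 were methylated in at least 1 sample and 126 of these (51.9%) in all 5. On chromosomes 60.9% were methylated in all 5. Only 1 unplaced window was methylated in 1 of these samples and below 0.2 in another. Over the 7400 unplaced windows described in all 6 samples, 25 were methylated in oocytes and 28 to 37 in the other samples. Oocytes were also lowest over the 156283 chromosome windows described in all 6, with 331 against 376 to 423. Their median depth was 6.50 reads per CpG in these unplaced windows and 18.4 to 75.5 in the other samples, and its part in the low count was not tested.

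Sperm and oocytes were compared first. Each of the 7 comparisons used Fisher's exact test on reads summed over the CpGs of a window with 5 reads in both samples, adjusted by Benjamini and Hochberg over all honey bee windows, and a window was called at an adjusted p below 0.05 with a difference in mean level of at least 0.2. The test compares 2 pooled libraries, not conditions. Of 7407 unplaced windows, 18 were called (0.243%), 16 higher in sperm and 2 in oocytes. This count rests on thinly covered oocyte CpGs: 1 window of 1347 tested was called with a minimum of 10 reads and 1 of 3954 with sperm thinned to the reads of oocytes, both higher in sperm. Over unplaced and chromosome windows together the called share was 0.0953%, with 0.077% higher in sperm and 0.0183% in oocytes. The unplaced shares below were all above the shares of all windows, without a test of that difference. Over shared unplaced CpGs the mean level was 0.00151 higher in sperm (95% binomial interval 0.00129 to 0.00173), and 0.000757 with reads pooled over CpGs. Over shared chromosome CpGs it was 0.000461 higher in sperm.

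Over shared CpGs, GroupUn30:129001-130000 had the largest difference of the 18 windows called between sperm and oocytes. Its level was 0.344 over 29 CpGs in sperm, 0.00932 in oocytes, 0.0177 and 0.0226 in worker embryos (blastoderm, then gastrula) and 0.00826 and 0.00564 in drone embryos. The sperm library stood apart and the other 5 were at 0.0226 or lower. Sperm had 0.420 and oocytes 0.00932 over the 18 shared CpGs (adjusted p = 1.02e-15 by Fisher's exact test). GroupUn264:3001-4000 had 0.924 in sperm and 0.567 in oocytes over 12 shared CpGs, and GroupUn271:6001-7000 had 0.434 and 0.0996 over 6. By whole windows, where each sample has its own CpGs, GroupUn6:169001-170000 differed most, chosen after its values were seen, with 0.704 over 18 CpGs in sperm and 0.328 over 12 in oocytes. GroupUn264:3001-4000 was the named window still called after thinning, and GroupUn30:129001-130000, GroupUn271:6001-7000 and GroupUn63:85001-86000 then had too few CpGs to test.

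GroupUn63:85001-86000 was called in 4 of the 7 comparisons, more than any other unplaced window. Its level was 0.156 in sperm, 0.509 in oocytes, 0.554 and 0.187 in worker embryos (blastoderm, then gastrula) and 0.653 and 0.740 in drone embryos. Sperm and worker gastrula were low and the other 4 samples were above 0.5.

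Between sperm and worker blastoderm, 36 of 19207 unplaced windows were called (0.187%, against 0.111% of all windows). Of these, 21 were higher in sperm and 15 in blastoderm, against 0.0621% and 0.0487% of all windows. After thinning 20 were called, and 16 in 2000-bp windows. GroupUn104:71001-72000 had 0.969 in sperm and 0.451 in blastoderm over 7 shared CpGs (Fisher's exact test, adjusted p = 3.47e-10). GroupUn110:62001-63000 had 0.601 and 0.0952, and GroupUn2157:1-1000 had 0.443 and 0, each over 5 CpGs. These 3 had too few CpGs to test with a minimum of 10 reads or after thinning. In the other direction, GroupUn221:21001-22000 had 0.230 in sperm and 0.573 in blastoderm, and GroupUn246:20001-21000 had 0.532 and 0.845. The mean level over shared unplaced CpGs differed by -0.000246 (sperm minus blastoderm), and by -0.00253 with reads pooled over CpGs. On chromosomes it differed by -0.000256.

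Between oocytes and drone blastoderm, 4 of 7393 unplaced windows were called (0.0541%, against 0.0196% of all windows), and all 4 were higher in drone blastoderm. Among all windows 0.019% were higher in drone blastoderm and 0.000611% in oocytes. With a minimum of 10 reads 2 unplaced windows were called, and 0 by Fisher's exact test after thinning. GroupUn26:77001-78000 had 0.676 in oocytes and 0.954 in drone blastoderm, and the other 4 samples lay between 0.906 and 0.939. GroupUn85:11001-12000 had 0.696 and 0.934. GroupUn97:17001-18000 had 0.736 and 0.972 over 11 shared CpGs. The mean level over shared CpGs differed by -0.00199 (oocytes minus drone blastoderm, 95% interval -0.00222 to -0.00175), and by -0.000965 on chromosomes.

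From blastoderm to gastrula few windows were called. In workers there were 5 of 20497 (0.0244%, against 0.0141% of all windows), 4 higher at blastoderm and 1 at gastrula, against 0.0108% and 0.0033%. In drones there were 10 of 17830 (0.0561%, against 0.0252%), 7 higher at blastoderm and 3 at gastrula, against 0.0126% in each direction. In 2000-bp windows 3 and 1 were called. In workers GroupUn63:85001-86000 fell from 0.554 to 0.187 and GroupUn88:67001-68000 from 0.453 to 0.141, whereas GroupUn6:179001-180000 rose from 0.204 to 0.455 over 7 shared CpGs. In drones GroupUn31:92001-93000 fell from 0.500 to 0 over 5 shared CpGs and GroupUn164:9001-10000 from 0.902 to 0.518 over 7. GroupUn29:92001-93000 rose from 0.618 to 0.867 over 6 shared CpGs and GroupUn191:2001-3000 from 0.322 to 0.564 over 10. Over shared unplaced CpGs blastoderm minus gastrula was -0.000294 in workers (95% interval -0.000395 to -0.000194) and 8.68e-05 in drones (-4.12e-05 to 0.000215). With reads pooled over CpGs it was -0.00227 and -0.00184. On chromosomes it was -0.000665 and -0.000471, below 0 in both castes. Mean differences this small were not corrected for bisulfite conversion, so they cannot be told apart from differences in conversion between libraries.

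Workers and drones differed at the gastrula stage in more windows than at blastoderm. At blastoderm 1 of 18217 unplaced windows was called (0.00549%, against 0.0029%), GroupUn12:77001-78000, with 0.860 in workers and 0.627 in drones. Among all windows 0.00193% were higher in workers and 0.000966% in drones. At gastrula 64 of 19848 were called (0.322%, against 0.182%), 25 higher in workers and 39 in drones, against 0.0656% and 0.116% of all windows. The difference between the stages was not tested. In 17 of the 64 the worker level was at least 0.2 and the drone level below 0.1, and in 6 it was the reverse. None was methylated in workers and 8 were in drones. Over all described unplaced windows the methylated share was 0.786% in worker gastrula and 1.04% in drone gastrula. These splits were not set against chromosome windows and not tested. Reads differed too, with a median over these windows of 51.4 reads per CpG in worker gastrula and 13.0 in drone gastrula. With both thinned to the same total of reads, 59 windows were called, and 24 in 2000-bp windows. Over shared unplaced CpGs worker minus drone was -0.000260 at blastoderm and 0.000183 at gastrula, against -0.000279 and -7.1e-05 on chromosomes. With reads pooled over CpGs the unplaced differences were 0.00151 and 0.00203.

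GroupUn88:67001-68000 differed most between the gastrula samples. Its level was 0.483 in sperm, 0.217 in oocytes, 0.453 and 0.141 in worker embryos (blastoderm, then gastrula) and 0.459 and 0.725 in drone embryos. The embryos were close at blastoderm and 0.584 apart at gastrula (Fisher's exact test, adjusted p = 2.89e-58). GroupUn63:85001-86000 had 0.187 in worker and 0.740 in drone gastrula. In the other direction, GroupUn29:105001-106000 had 0.613 in worker gastrula and 0.156 in drone gastrula, GroupUn6:179001-180000 had 0.455 and 0, and GroupUn104:71001-72000 had 0.423 and 0.0139. Drone blastoderm and drone gastrula also differed in GroupUn29:105001-106000, with 0.314 and 0.0152 over 6 shared CpGs.

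**Figure D5:**
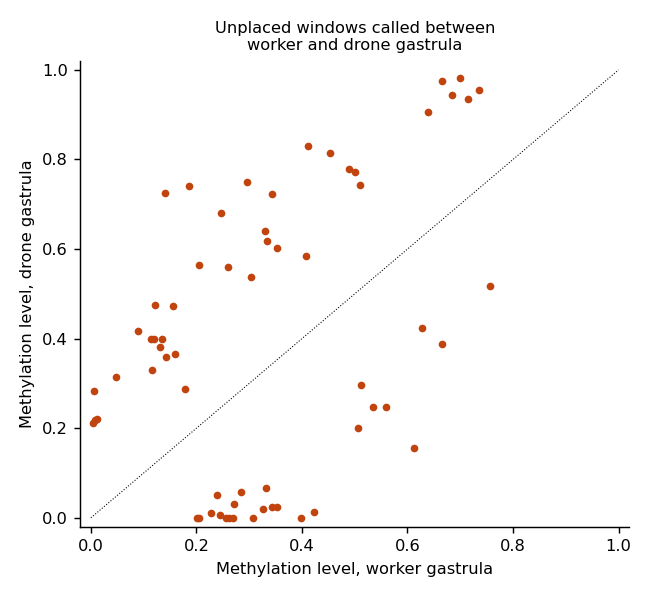
Methylation level in worker gastrula (x axis) and drone gastrula (y axis) of the 64 unplaced windows called between them, with a dotted line at equal levels. Of these, 39 lie above the line and 25 below it, and 17 have a worker level of at least 0.2 with a drone level below 0.1.

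Called windows were few and CpG-poor, and some scaffolds held several. Over the 7 comparisons, which share samples, 111 distinct unplaced windows on 63 scaffolds were called, 90 of them in 1 comparison only. They had a median of 8 listed CpGs, 70 had 5 to 9, and only 4 had 20 or more. Of all 23903 described unplaced windows, 6344 had 5 to 9. A call needs a difference of 0.2, so windows without methylation could not be called. Methylated unplaced windows were CpG-poor as well, with medians of 6 to 10, so the low CpG counts are not a separate trait of called windows. GroupUn102 held the most, 8 of its 87 described windows, all between positions 29001 and 48000. Of its 6 windows called between worker and drone gastrula, 5 were higher in drones. GroupUn102:35001-36000 had 0.247 in worker gastrula and 0.681 in drone gastrula. GroupUn6 followed with 7 called windows and GroupUn97 with 5. On GroupUn97 the 3 windows called between worker and drone gastrula were all higher in workers, at 0.201 to 0.261 against 0 to 0.00735 in drones.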

How the data were processed

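Per the labels and the study's methods, the authors trimmed reads with Trimmomatic, mapped them with Bismark to assembly GCA_000002195.1, removed duplicates, clipped overlapping mates and extracted CpG calls. SAMtools 0.1.19 is also named. The deposited files give, for each CpG, whole-number counts of methylated and unmethylated reads and their fraction, pooled over 2 replicates. The deposited fraction equalled the ratio of the counts. Levels were not corrected for incomplete bisulfite conversion, so low levels hold unconverted reads. Bismark by default keeps only reads with a unique best place, which bears on depth in repeated sequence.

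Levels were means over CpGs with at least 5 reads. Sums used Python 3.11.15 with numpy 2.4.6 and scipy 1.17.1. Samples were grouped by their titles, and the 16 samples of 3 other species were not used. The Fisher test was tested on simulated data. Alternatives covered reads, CpG and span minimums, window size, very deep CpGs, thinning, weighting and left-out samples. Named regions were the 5 scaffolds with most described and with most methylated windows, the 3 most extreme by depth, the 8 highest windows and up to 3 called windows per direction, ties by name and position. Members, lists and tests were chosen with earlier results of these data known. No bee genome or annotation was used here, so no sequence or gene is given.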

Additional observations from a re-analysis of the deposited data

Results flagged for a closer look

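From blastoderm to gastrula the mean level over shared unplaced CpGs, with each CpG weighted equally, differed in sign between the castes: blastoderm minus gastrula was -0.000294 in workers and 8.68e-05 in drones. The drone interval includes 0, and its sign turns with a minimum of 10 reads and with reads pooled over CpGs, which gave -0.00227 in workers and -0.00184 in drones. On chromosomes both were below 0, at -0.000665 and -0.000471. The difference between workers and drones was not tested, since each stage is 1 pooled set of counts. Nor were these small differences corrected for bisulfite conversion.

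Of 95 called windows tested from blastoderm to gastrula in both castes, 3 moved by 0.2 or more in opposite directions over their shared CpGs, and 2 of these were called in both castes. The 95 were chosen because they differed in these same comparisons, and all 3 were called between worker and drone gastrula. That choice favours opposite movement, so the count of 3 says nothing about windows at large. Blastoderm minus gastrula in GroupUn88:67001-68000 was 0.312 in workers and -0.266 in drones, over 10 CpGs each. In GroupUn6:179001-180000 it was -0.251 in workers and 0.250 in drones, over 7 CpGs each. In GroupUn63:85001-86000 it was 0.367 in workers over 10 CpGs and -0.202 in drones over 8, where drones were not called (Fisher's exact test, adjusted p = 0.787). Worker gastrula was the deepest sample in each, at 52.1 to 99.9 reads per CpG, against 10.4 to 22.5 in the other embryo samples. These differences between castes were not tested either.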

How the results depend on the processing

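None of the 5 tests against chromosomes passed the threshold, and no alternative did. None could have: each replaced 1 p at a time, and the lowest adjusted p within reach of the sign-flip permutation test was 0.0521. Depth was -0.997 with a minimum of 1 read and -0.62 without the requirement on windows, below 0 in 6 of 6 samples in both, and turned to 0.14 with mean reads. Weighting chromosome windows to the unplaced CpG counts turned the mean level difference to -0.0323 and the methylated share to -2.36 percentage points, or to -0.0400 and -2.68 in long scaffolds without end windows, an alternative added after seeing the data. The intermediate share turned to 0.210 without end windows, 0.498 in spans of at least 10000 bp and 0.590 after thinning. Leaving out 1 sample gave -0.65 to -0.44 (depth), 0.00610 to 0.00647 (level), 0.0913 to 0.130 (methylated), -0.474 to -0.205 (intermediate) and 0.271 to 0.342 (CpGs above 0.9), and 5 samples cannot give a p below 0.0625. CpG density kept its direction in 6 of 6 alternatives.

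With a difference of 0.1, the called unplaced windows numbered 92 (sperm and worker blastoderm), 25 (worker stages), 27 (drone stages), 4 (blastoderms) and 175 (gastrulae). In 2000-bp windows they numbered 16, 3, 1, 0 and 24 in that order. The 0 came from Fisher's exact test, with 1 call in 1000-bp windows. With 10 reads, 1 window was called between sperm and oocytes and 2 between oocytes and drone blastoderm. After thinning the counts were 1 and 0, and 20 between sperm and worker blastoderm. Thinning and 10 reads leave fewer windows and reads to test. The 31 calls of named windows were kept with a minimum of 3 CpGs and without very deep CpGs. With 10 reads 18 of them had too few CpGs to test, 12 were kept and 1 was lost. After thinning these were 12, 15 and 4. The lost differences stayed at -0.217 and -0.263 (GroupUn191:2001-3000, -0.242 as reported; 10 reads, then thinning), and after thinning at -0.237 (GroupUn246:20001-21000, -0.313), -0.276 (GroupUn26:77001-78000, -0.278) and 0.262 (GroupUn29:105001-106000 between drone stages, 0.299).

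With reads pooled over CpGs the mean differences were 0.000757 (sperm minus oocytes), -0.00253 (sperm minus worker blastoderm), -0.00137 (oocytes minus drone blastoderm), -0.00227 (worker stages), -0.00184 (drone stages), 0.00151 (blastoderms, worker minus drone) and 0.00203 (gastrulae), turning the sign for the drone stages and the blastoderms. With 10 reads they were -0.000134 (sperm minus worker blastoderm), -4.47e-06 (drone stages) and 7.18e-05 (gastrulae). The cause was not tested. Oocytes, with a median of 7 reads, limit every comparison that uses them. No paired analysis was possible because each stage was deposited as 1 pooled set of counts.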
